A study of Mus musculus with 47 samples.

Results

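Ephrins, semaphorins, Slits, netrins and their receptors, first described as cues that steer growing axons, were followed in sorted mouse mammary epithelial cells through a full reproductive cycle. Members were taken by gene symbol alone: every row of the expression table whose symbol named an Eph receptor, an ephrin, a semaphorin of classes 3 to 7, a plexin, *Nrp1* or *Nrp2*, a Slit, a Robo, a netrin or an Unc5 receptor. This gave 62 members of 17078 genes. Of 68 symbols of these families in the annotation, *Epha5*, *Epha6*, *Epha8*, *Ntn3*, *Ntn5* and *Sema4f* were not analysed here.

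The cells came from FVB/N mice, and no group carried a transgene or drug treatment. Lineage-negative CD24+CD29lo cells were sorted as luminal and CD24+CD29hi cells as basal (myoepithelial-enriched), from pooled glands of several mice for each sort. The 8 time points were nulliparous females at 10 weeks (W10) and 4 months (M4), days 3.5 and 14.5 of pregnancy (P3.5, P14.5), days 3 and 10 of lactation (L3, L10), day 2 of involution after weaning at lactation day 10 (Id2), and week 4 of involution (Iw4). There were 24 luminal and 22 basal RNA-seq libraries, 3 for each time point and cell type except 2 basal libraries at P14.5 and 2 at L10. Reads on genes ranged from 4398806 to 20023054 per library (median 8518616), so that 3 reads corresponded to 0.17 to 1.05 CPM (reads on a gene scaled to library size) depending on the library. L3 and L10 were amplified in a batch of their own, P3.5 and P14.5 shared another and W10 and Id2 a further one, while M4 and Iw4 were spread over 3 other batches (1 to 3) that no other time point used. By the labels W10, Id2, P3.5, P14.5 and L10 were sequenced on lanes 2, 3, 5, 6 and 8, and L3, Iw4 and M4 on lane 7. Between time points of different batches or lanes, time cannot be told apart from batch or lane.

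As background, Eph receptors are receptor tyrosine kinases that bind ephrins on the surface of a neighbouring cell, the class A ephrins being lipid-anchored and the class B ephrins transmembrane. Class 3 semaphorins are secreted and act through neuropilins and plexins, whereas classes 4 to 7 stay at the membrane and mostly bind plexins directly. Slits are secreted ligands of Robo receptors, and netrins are laminin-related proteins whose receptors include Unc5 proteins. In the mammary gland netrin-1 and Slit signals are known for their part in adhesion between the cell layers of the growing duct, and several of these families also guide blood vessels.

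The labelled cell types were checked first. The 10 luminal marker genes (among them *Krt19*, *Epcam* and *Cd24a*) summed to 5056 to 11580 CPM in luminal libraries and 320.5 to 2848 CPM in basal libraries. The 10 basal markers summed to 142.8 to 2542 CPM in luminal libraries, the highest being L10 luminal replicate 5, in which *Krt5* was the most abundant. They summed to 12900 to 79270 CPM in the basal libraries other than Id2 replicates 2 and 6, led by the smooth muscle actin *Acta2* or the smooth muscle myosin *Myh11*. In those 2 libraries they summed to only 1369 and 1109 CPM. The 12 endothelial markers summed to 20511 CPM in Id2 basal replicate 2, with *Vwf* the most abundant, and the 10 fibroblast markers summed to 77308 CPM in Id2 basal replicate 6, with *Col1a1* the most abundant. Id2 basal replicate 4 summed to 17950 CPM of basal markers beside 12044 CPM of fibroblast and 11281 CPM of pericyte markers, but its sum was carried by *Acta2*, *Myh11* and *Mylk* (8399, 5346 and 3509 CPM), contractile genes that mural cells of vessels share. The basal keratin *Krt5* was 4.68, 156 and 6.95 CPM in Id2 basal replicates 2, 4 and 6 and at least 779 CPM in every other basal library. *Krt14* (2.65, 49.0 and 3.07 CPM, at least 434 elsewhere) and *Trp63*, the p63 transcription factor of basal cells (9.99, 26.6 and 3.39 CPM, at least 457 elsewhere), were low in the same way. By these 3 markers the 3 Id2 basal libraries went against their label. *Acta2*, *Myh11*, *Mylk* and *Snai2* were nonetheless higher in each of them than in any luminal library (*Snai2* 12.2, 44.8 and 60.3 CPM, at most 11.9 in luminal libraries). *Cnn1* (8.74, 316 and 8.08 CPM, at most 32.0 in luminal libraries) was so only in replicate 4. *Oxtr* (1.56, 98.2 and 6.30 CPM, at most 192) and *Lgr6* (0.156, 5.23 and 0.485 CPM, at most 120) were so in no replicate. Of 10 basal markers 5 were called higher in the basal sort at Id2. The counts over the mean of time points and over time are therefore also given without Id2.

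Upstream sequence is shown for the 4 members with the largest mean difference of basal over luminal cells. Each of them was called at every time point, as were *Sema6a* and *Unc5b*. Each window holds the 250 bases before the RefSeq start in GRCm38.p6, all on the plus strand, with the GC box GGGCGG or its reverse complement CCGCCC in capitals. For *Sema6d*, which has 2 RefSeq starts, the outermost was taken. Their places are chr11:35121206-35121455 for *Slit3*, chr2:124089719-124089968 for *Sema6d*, chr15:32244563-32244812 for *Sema5a* and chr10:93640799-93641048 for *Ntn4*.
Slit3: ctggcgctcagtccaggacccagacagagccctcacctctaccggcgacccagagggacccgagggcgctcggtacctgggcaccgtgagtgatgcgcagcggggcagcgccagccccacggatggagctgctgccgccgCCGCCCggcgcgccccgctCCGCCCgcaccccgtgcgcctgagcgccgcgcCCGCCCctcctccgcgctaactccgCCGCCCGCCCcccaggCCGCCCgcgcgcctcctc
Sema6d: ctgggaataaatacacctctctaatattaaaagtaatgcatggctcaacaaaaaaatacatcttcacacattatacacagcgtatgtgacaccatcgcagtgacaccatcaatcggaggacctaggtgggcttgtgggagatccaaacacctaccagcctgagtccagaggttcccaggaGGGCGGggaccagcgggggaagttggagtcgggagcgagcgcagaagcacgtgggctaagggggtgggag
Sema5a: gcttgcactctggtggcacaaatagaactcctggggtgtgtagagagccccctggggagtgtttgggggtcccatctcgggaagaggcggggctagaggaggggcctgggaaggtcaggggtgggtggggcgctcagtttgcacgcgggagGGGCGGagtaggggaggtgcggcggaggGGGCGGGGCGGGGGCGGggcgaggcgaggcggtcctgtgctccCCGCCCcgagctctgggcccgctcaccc
Ntn4: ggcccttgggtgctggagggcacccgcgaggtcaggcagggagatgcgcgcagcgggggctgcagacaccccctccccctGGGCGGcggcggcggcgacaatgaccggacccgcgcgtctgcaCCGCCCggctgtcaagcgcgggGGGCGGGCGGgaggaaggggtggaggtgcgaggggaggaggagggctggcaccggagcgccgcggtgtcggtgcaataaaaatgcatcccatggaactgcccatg

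The GC box, counted on both strands with overlaps allowed, was found 6 times for *Slit3*, 5 times for *Sema5a*, 4 times for *Ntn4* and 1 time for *Sema6d*. It was present in 32.7% of all 32851 RefSeq windows of this length. No window held the CCAAT box (CCAAT or ATTGG, in 33.8% of all windows) or the TATA box (TATAAA or TTTATA, in 12.4%). The GC content was 78.8%, 52.4%, 72.0% and 73.2% for *Slit3*, *Sema6d*, *Sema5a* and *Ntn4*. These matches describe letters in a window and are not evidence of binding.

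Most of the guidance genes were higher in the basal than in the luminal sort. In the mean over the 8 time points 35 of 62 members (56.5%) were called higher in basal cells, where 13.6% of all 17078 genes were, and 4 members (6.45%) were called higher in luminal cells, where 7.35% of all genes were. A call required a 2-fold change in CPM + 1 and an FDR under 0.01 by limma over all genes. The median difference of the members was 1.31 on the log2(CPM + 1) scale, against 0.02 for all genes. Without the Id2 libraries 38 were higher in basal and 4 in luminal cells, where 13.8% and 7.35% of all genes were. No call was lost and *Efna3*, *Efnb1* and *Sema4a* were gained. The difference of a called member moved by -0.30 to 0.37 without Id2, most for *Sema4g* (1.06 to 1.43) and *Ephb6* (1.40 to 1.77). In the same contrast 11 of 12 endothelial (median 1.75), 10 of 10 fibroblast (2.77), 7 of 8 pericyte (3.50) and 3 of 4 adipocyte markers were also called higher in the basal sort, beside all 10 basal markers (5.55). Without Id2 the counts were 11, 9, 7 and 4. The part of these cell types in the members' differences was not tested. All of these are RNA levels in bulk sorts, in which fewer cells of a type and less RNA per cell cannot be told apart.

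**Figure D1:**
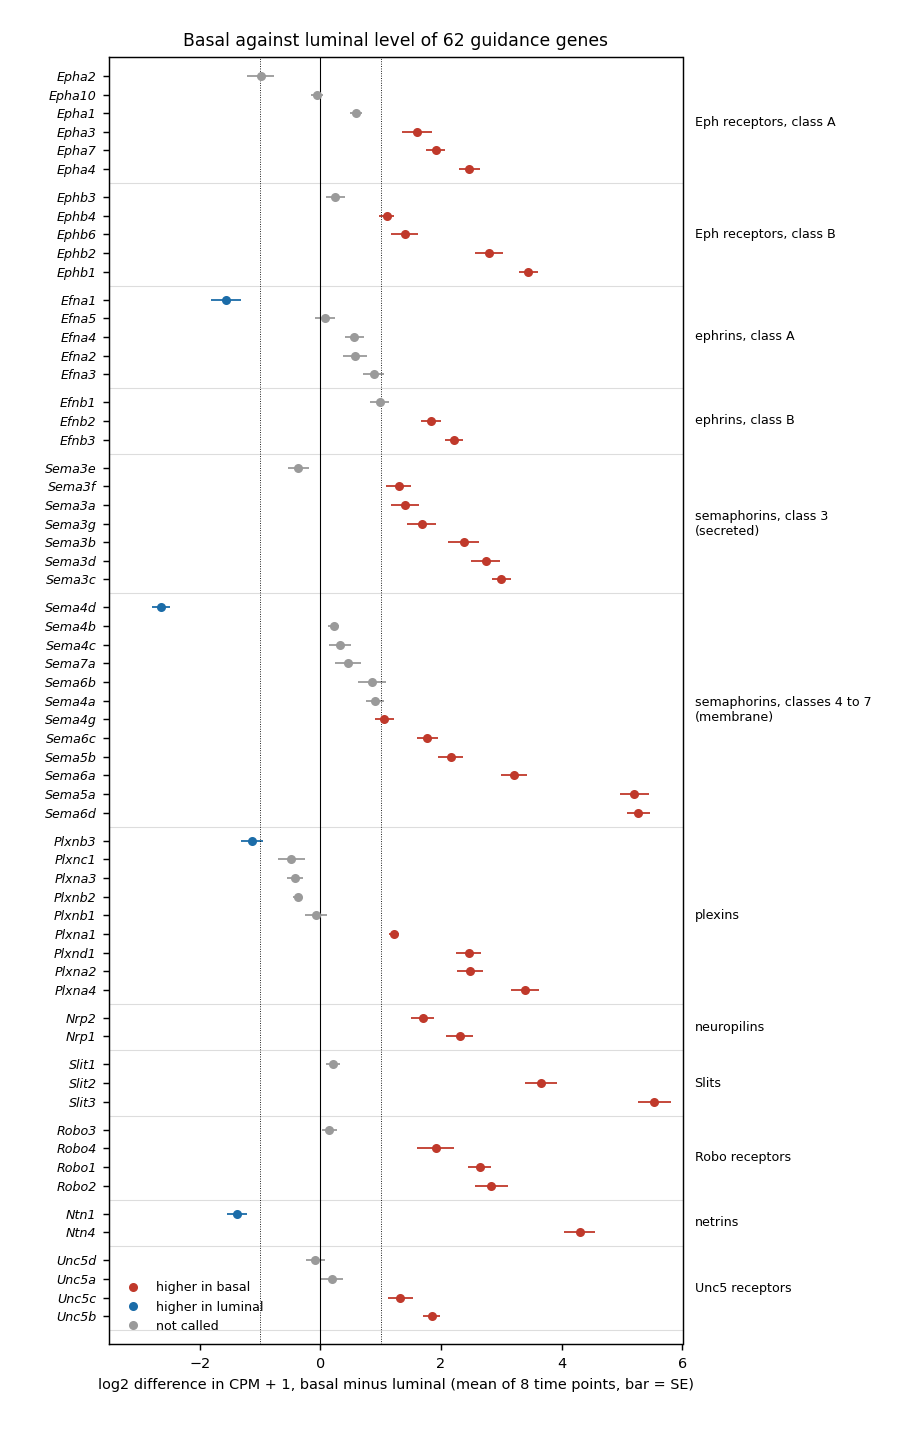
Difference between basal and luminal cells for each of the 62 members, by family. The x axis is the log2 difference in CPM + 1 averaged over 8 time points, bars are SE, and dotted lines mark a 2-fold difference. Most points lie to the right (35 called higher in basal) and 4 lie past the left line (*Sema4d*, *Efna1*, *Ntn1* and *Plxnb3*).

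Among ligands, the largest difference was that of *Slit3* (ENSMUSG00000056427), a secreted Robo ligand. Its level was 52.8 to 1376 CPM in the 22 basal libraries (median 134.2) and 0.163 to 113 CPM in the 24 luminal libraries (median 2.00). The ranges overlapped only through Id2 luminal replicate 6, which held 113 CPM of *Slit3* beside 5549 CPM of fibroblast markers. The difference was 5.53 ± 0.28 (SE; limma adjusted p = 1.63e-19). *Slit2* was also higher in basal cells (3.65 ± 0.26), while *Slit1* was under 3 reads in 28 of 46 libraries.

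*Sema6d* (ENSMUSG00000027200), a transmembrane semaphorin, was 165 to 775 CPM in basal libraries (median 322) and 1.86 to 26.9 CPM in luminal libraries (median 6.64). No luminal library reached the lowest basal one, and the difference was 5.27 ± 0.19 (limma adjusted p = 5.41e-24). *Sema5a* (ENSMUSG00000022231), a transmembrane semaphorin with thrombospondin repeats, was 48.1 to 635 CPM in basal libraries (median 242) against 0.928 to 26.6 CPM in luminal libraries (median 5.29). Its ranges did not overlap either, and it differed by 5.20 ± 0.24 (limma adjusted p = 1.77e-20). *Sema6a* (3.21 ± 0.21), *Sema5b* (2.16), *Sema6c* (1.77) and *Sema4g* (1.06) were also higher in basal cells, so that 6 of the 12 membrane semaphorins were basal and 1 was luminal.

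*Ntn4* (ENSMUSG00000020019), a netrin of basement membranes, was 11.4 to 417 CPM in basal libraries (median 108) and 0 to 19.6 CPM in luminal libraries (median 3.59). The overlap came from the lowest basal value, 11.4 CPM at P14.5, and from luminal values of 15.8 and 17.9 CPM at W10 and 19.6 CPM at L10. The difference was 4.29 ± 0.26 (limma adjusted p = 6.44e-17). The other netrin of the table went the opposite way: *Ntn1* (ENSMUSG00000020902), the secreted netrin-1, was 20.7 to 160 CPM in luminal libraries (median 64.1) and 5.63 to 62.6 CPM in basal libraries (median 21.4), a difference of -1.39 ± 0.17 (limma adjusted p = 5.63e-09). Its 2 lowest basal values, 5.63 and 7.52 CPM, were at P3.5, where the third library held 14.4 CPM.

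*Sema4d* (ENSMUSG00000021451), a ligand of plexin-B1, had the largest luminal excess. Its level was 43.2 to 195 CPM in the 24 luminal libraries (median 72.8) and 1.80 to 26.0 CPM in the 22 basal libraries (median 14.5). The ranges did not overlap and the difference was -2.64 ± 0.14 (limma adjusted p = 2.49e-18). *Efna1* (ENSMUSG00000027954), a lipid-anchored ephrin, was 8.52 to 78.1 CPM in luminal and 0.285 to 30.8 CPM in basal libraries (medians 24.7 and 9.76), a difference of -1.56 ± 0.24 (limma adjusted p = 7.87e-07) with overlapping ranges. *Plxnb3* (ENSMUSG00000031385), a plexin, was low in both, at 0.137 to 15.6 CPM in luminal and 0 to 0.852 CPM in basal libraries (medians 1.16 and 0.148). Its difference was -1.14 ± 0.18 (limma adjusted p = 7.61e-07) and was not called without L10 replicate 6, nor was *Sema4g* without L10 replicate 6 or Iw4 replicate 6, nor *Ephb4* without Id2 replicate 2.

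**Figure D2:**
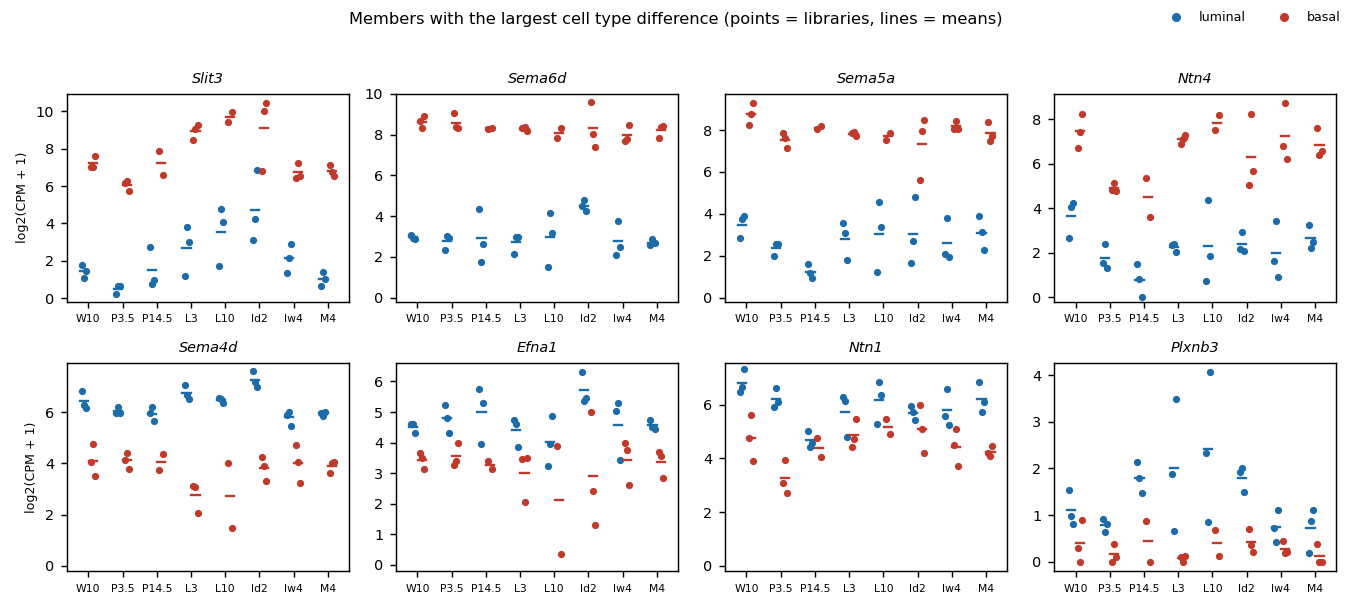
Levels of the 4 members with the largest difference in each direction. Points are libraries, lines are means on the log2(CPM + 1) axis, luminal in blue and basal in red, at the 8 time points. *Slit3*, *Sema6d*, *Sema5a* and *Ntn4* have basal means above luminal means at all 8, and *Sema4d* has the reverse.

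Receptors were mostly on the basal side as well. Among 11 Eph receptors, 7 were higher in basal cells, namely *Ephb1* (3.44), *Ephb2* (2.79), *Epha4* (2.47), *Epha7* (1.91), *Epha3* (1.60), *Ephb6* (1.40) and *Ephb4* (1.10), and none was called luminal. The most abundant Eph receptor per kb of exon, *Epha2* (31.0 CPM per kb), was not called, with a mean level of 40.1 CPM per kb in luminal and 21.1 in basal libraries. Of the class B ephrins, ligands that can themselves signal into their own cell, *Efnb3* (2.21) and *Efnb2* (1.83) were higher in basal cells, while none of the class A ephrins was.

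Both neuropilins, co-receptors of class 3 semaphorins and of vascular endothelial growth factors, were higher in basal cells (*Nrp1* 2.31, *Nrp2* 1.69). So were 6 of 7 class 3 semaphorins: *Sema3c* (3.00), *Sema3d* (2.74), *Sema3b* (2.37), *Sema3g* (1.68), *Sema3a* (1.40) and *Sema3f* (1.29). Of the 9 plexins 4 were higher in basal cells, *Plxna4* (3.39), *Plxna2* (2.49), *Plxnd1* (2.46) and *Plxna1* (1.22). The Robo receptors *Robo2* (2.83), *Robo1* (2.64) and *Robo4* (1.91) were higher in basal cells, as were *Unc5b* (1.84) and *Unc5c* (1.32) of the 4 Unc5 receptors. Taken singly, *Robo1* was called at 7 time points, *Robo2* at 5 and *Robo4* at 0. The basal level of *Robo4* was 0.298 to 866 CPM (median 6.08). *Robo4* and *Plxnd1* are known chiefly from blood vessels, and the levels of endothelial and pericyte markers are given beside their changes over time.

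Per kb of exon and over all 46 libraries, the most abundant members of the remaining families were *Plxnb2* among plexins (28.8 CPM per kb), *Slit3* among Slits (27.1), *Ntn4* among netrins (17.8), *Sema3c* and *Sema6d* among secreted and membrane semaphorins (15.7 each), *Ephb4* among class B Eph receptors (13.6), *Efna1* and *Efnb1* among class A and class B ephrins (10.6 and 9.77), *Unc5b* among Unc5 receptors (4.80) and *Nrp2* of the neuropilins (4.49). The first place differed by cell type in 4 families. In luminal libraries *Ntn1* (10.8 CPM per kb) stood above *Ntn4* (1.42), and *Sema4c* (12.8) above *Sema6d* (0.84). In basal libraries *Efna4* (7.71) stood above *Efna1* (5.36), and *Efnb2* (14.6) above *Efnb1* (13.2). Among Robo receptors *Robo4* stood first with 6.05 CPM per kb and *Robo1* next with 3.31, but without the Id2 libraries *Robo4* had 2.39 and *Robo1* 3.48. *Nrp2* had 2.92 CPM per kb without Id2. *Efnb1* and *Efnb2* also changed places without Id2 (10.2 and 10.4 CPM per kb). *Plxnb2* was thus the most abundant plexin without being called in either cell type, with 32.9 CPM per kb in luminal and 24.4 in basal libraries.

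Genes that work beside these families, from fixed lists of 13 co-receptors and other ligands and 34 intracellular effectors in the table, were counted in the same fit. Of the co-receptors and ligands 8 (61.5%) were higher in basal and 1 (7.69%) in luminal cells. Of the effectors 7 (20.6%) were higher in basal and 3 (8.82%) in luminal cells, closer to the 13.6% and 7.35% of all genes. Among the former were *Ntng2* (4.35), a membrane-anchored netrin-G, the adhesion molecules *Cntn2* (2.14), *Nrcam* (2.13) and *Flrt2* (1.94), *Rgma* (1.49) and *Flrt1* (1.47), while *Dscam*, a netrin receptor, was lower (-1.14). Among the effectors were the collapsin response mediators *Dpysl3* (5.12) and *Dpysl2* (3.40), the kinase *Fyn* (2.76), the semaphorin effectors *Mical2* (2.70) and *Mical1* (2.37), and *Vav3* (1.95), while *Fes* (-1.50), *Srgap3* (-1.40) and *Ngef* (-1.36) were lower in basal cells.

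Members were called higher in basal cells more often than all genes at each time point. At W10 26 members were higher in basal and 2 in luminal cells, where 9.1% and 5.12% of all genes were. At P3.5 25 and 2 members were called (all genes 7.27% and 4.64%), at P14.5 29 and 1 (9.54% and 3.39%), at L3 29 and 2 (15.9% and 9.87%), and at L10 15 and 3 (13.8% and 10.9%). At Id2 the counts were 23 and 6 (12.2% and 9.39%), at Iw4 22 and 1 (7.79% and 3.75%), and at M4 24 and 2 (8.2% and 4.24%). The fewest basal calls were made at L10 and the most at P14.5 and L3, with 2 basal libraries at both L10 and P14.5. Markers of other cells differed between the sorts by time point. At W10 0 of 12 endothelial, 1 of 10 fibroblast and 3 of 8 pericyte markers were called higher in basal libraries, at P3.5 0, 1 and 2, and at M4 0, 1 and 5. At P14.5 the counts were 0, 10 and 6, at L3 2, 5 and 8, at L10 3, 1 and 8, at Id2 4, 8 and 8, and at Iw4 1, 1 and 5. Of 4 adipocyte markers 3 were called higher in basal libraries at L3, 4 at L10 and 2 at Id2. At P14.5 and at Iw4 1 was, and at W10, P3.5 and M4 none was. Without P14.5 replicate 3, which leaves 1 basal library, 6 members were called at P14.5, and without L10 replicate 6, which also leaves 1, 10 were called at L10.

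Leaving out other sorts also lowered the number called in either direction by over 1.5 times: 18 of 28 were called at W10 without replicate 6, 16 of 27 at P3.5 without replicate 2, 20 of 31 at L3 without replicate 6 and 17 of 26 at M4 without replicate 1. At Iw4, where 23 were called, 15, 14 and 13 were called without replicates 3, 5 and 6.

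*Slit3*, *Sema6d*, *Sema5a*, *Ntn4*, *Sema6a* and *Unc5b* were called higher in basal cells at all 8 time points, and *Sema4d* higher in luminal cells at all 8. *Sema4g*, a membrane semaphorin, was the 1 member called in both directions. It was higher in basal cells at W10, P3.5 and M4 (1.87, 2.89 and 1.81) and higher in luminal cells at Id2 (-1.54), where basal libraries held 3.28, 7.17 and 3.88 CPM. The 6 members called luminal at Id2 were *Sema4d*, *Efna1*, *Efna5*, *Sema4b*, *Sema3e* and *Sema4g*, at a time when all 3 basal libraries were low in *Krt5*, *Krt14* and *Trp63*. The part of that in these calls was not tested.

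**Figure D3:**
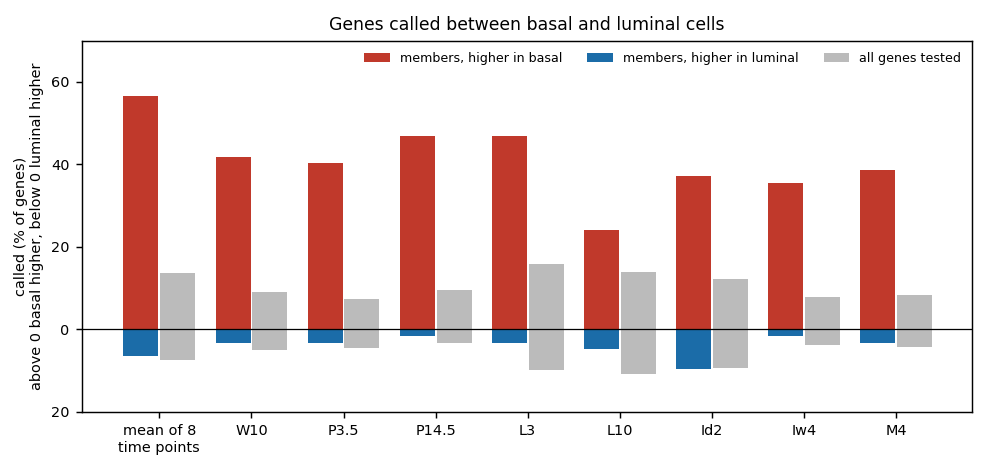
Share of genes called between basal and luminal cells, for the 62 members (coloured) and all 17078 genes (grey). Bars above 0 give genes higher in basal and bars below 0 genes higher in luminal cells, as percent on the y axis, for the mean and for each time point. Member bars above 0 exceed the grey bars at all time points, from 24.2% at L10 to 46.8% at P14.5 and L3.

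Levels also varied over the cycle within a cell type. By the moderated F test over 8 time points, with at least 2-fold between the highest and lowest mean, 25 of 62 members varied in luminal cells, against 31.5% of all genes, and 41 of 62 varied in basal cells, against 42.7% of all genes. Without Id2 the counts were 28 in luminal and 29 in basal cells, against 26.2% and 33.3% of all genes, and 28 of the 41 basal calls were still made. The remaining 13 basal calls, among them *Sema3c*, *Epha4*, *Epha7*, *Efnb3* and *Plxnb1*, were not made without the Id2 libraries.

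Early pregnancy changed few members. From W10 to P3.5 none of the 62 was called in luminal cells by limma (all genes 1.4% higher and 0.422% lower), 10 had an unadjusted p under 0.05, all lower at P3.5, and edgeR called none. In basal cells 1 member was higher and 2 were lower, where 4.97% and 1.79% of all genes were. *Sema3b*, a secreted semaphorin, was 30.7, 8.00 and 7.50 CPM in W10 and 132, 161 and 89.6 CPM in P3.5 basal libraries. The groups did not overlap and the difference was 3.22 ± 0.72 (limma adjusted p = 0.00166, edgeR adjusted p = 0.0150), though not called without W10 replicate 5, W10 replicate 6 or P3.5 replicate 4.

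*Plxna4*, a receptor of class 3 and class 6 semaphorins, went the other way in basal cells, from 69.9, 103 and 119 CPM at W10 to 6.96, 17.2 and 5.20 CPM at P3.5. All P3.5 values lay under all W10 values, and the difference of -3.31 ± 0.65 (limma adjusted p = 4.64e-04) was called with each sort left out in turn. *Epha1*, an Eph receptor of epithelia, was 32.7, 36.1 and 31.2 CPM at W10 and 13.7, 16.3 and 14.1 CPM at P3.5 in basal cells, a difference of -1.13 ± 0.28 (limma adjusted p = 0.00380) that was called in 19 of 24 fits with 1 sort left out. Its luminal values at those times, 34.8, 32.4 and 32.2 against 15.0, 16.8 and 20.2 CPM, were also lower at P3.5 but were not called. About 6% of the exon length of *Epha1* overlaps *Zyx*, and reads there cannot be told apart. The early pregnancy change differed between cell types for none of the members by limma or edgeR (all genes 0.0234% and 0% by direction), with 3 members at an unadjusted p under 0.05. Without W10 replicate 5 or W10 replicate 6 the basal count fell from 3 to 1, and without L10 replicate 5 or Id2 replicate 6, which only alter the estimate of spread, it rose to 5.

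From P3.5 to P14.5, within 1 amplification batch but on different lanes, 3 members were higher and 0 lower in luminal cells, against 0.814% and 0.709% of all genes. *Unc5d*, a netrin receptor, was 0.325, 0.0697 and 0 CPM at P3.5 and 4.10, 5.41 and 14.8 CPM at P14.5 in luminal libraries. It was thus near the level of a few reads at P3.5 and above it in all 3 P14.5 libraries (2.84 ± 0.44, limma adjusted p = 1.16e-04). *Nrp2* was 7.97, 4.60 and 6.87 CPM at P3.5 and 39.8, 40.8 and 24.8 CPM at P14.5, without overlap (2.27 ± 0.51, limma adjusted p = 0.00638), and *Sema4g* was higher by 2.19. By edgeR only *Sema4g* was called, and 1 member was called without any 1 of the P3.5 or P14.5 sorts.

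In basal cells 5 members were higher and 1 lower at P14.5, against 2.46% and 1.18% of all genes. *Robo4*, the endothelial Robo, was 0.792, 0.298 and 3.75 CPM at P3.5 and 53.5 and 26.8 CPM at P14.5 (4.13 ± 0.95, limma adjusted p = 0.00455). *Nrp1* was 2.77, 2.16 and 6.35 CPM and then 73.7 and 33.4 CPM (3.51 ± 0.68, limma adjusted p = 8.99e-04). *Sema7a* (3.12), *Plxnd1* (2.59) and *Unc5d* (2.02) were higher too. *Sema3b* returned from 132, 161 and 89.6 CPM to 12.6 and 13.2 CPM (-3.17 ± 0.80, limma adjusted p = 0.00958), a decrease not called by edgeR (adjusted p = 0.0445). EdgeR called *Nrp1*, *Sema7a* and *Plxnd1* and did not call *Robo4* or *Unc5d*. Over the same interval 6 of 12 endothelial, 8 of 10 fibroblast and 6 of 8 pericyte markers were called higher in basal libraries. So were 2 of 4 adipocyte markers (median 1.90) and 1 of 10 luminal markers. Endothelial markers summed to 23.6, 27.1 and 86.3 CPM at P3.5 and 1058 and 424.9 CPM at P14.5, and fibroblast markers to 467.3, 356.1 and 822.9 CPM and then 12599 and 6407 CPM. Their part in the changes of *Robo4*, *Nrp1* and *Plxnd1* was not tested. The count of 6 basal calls fell to 0 without P14.5 replicate 3, to 1 without P14.5 replicate 5 or P3.5 replicate 2, to 2 without P3.5 replicate 4, and to 3 without P3.5 replicate 6, W10 replicate 5 or W10 replicate 6.

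Lactation (L3 and L10) was compared with the nulliparous gland (W10 and M4), which pools 6 libraries an arm, or 5 for lactation basal cells. In luminal cells 14 members were higher and 3 lower, where 7.37% and 5.83% of all genes were. In basal cells 11 were higher and 9 lower, where 9.58% and 6.97% were. *Sema7a*, *Sema3g*, *Nrp1*, *Nrp2*, *Robo4*, *Plxnd1* and *Slit3* were called higher in both cell types.

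*Sema7a*, a lipid-anchored semaphorin that binds integrins and plexin-C1, was 0.104 to 5.61 CPM in the 6 nulliparous luminal libraries (median 0.723) and 7.32 to 32.9 CPM in the 6 lactation luminal libraries (median 17.4). The groups did not overlap (3.16 ± 0.41, limma adjusted p = 2.29e-07). In basal cells it was higher by 3.51 ± 0.44, and its values at Id2, 86.4, 97.7 and 37.6 CPM in luminal and 136, 47.9 and 64.5 CPM in basal libraries, were the highest of the series for either cell type. *Sema3g*, a secreted semaphorin known from vessels, was 0 to 0.981 CPM in nulliparous luminal libraries (median 0.255) and 3.86 to 36.1 CPM in lactation (median 6.72), higher by 3.10 ± 0.46 (limma adjusted p = 2.21e-06). In basal libraries it was 0.712 to 3.18 CPM (median 1.41) and then 63.8, 88.6 and 23.2 CPM at L3 and 76.2 and 37.4 CPM at L10, higher by 4.35 ± 0.49 (limma adjusted p = 7.65e-09).

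*Sema5b*, a transmembrane semaphorin, was a basal gain. It was 0.509 to 2.85 CPM in nulliparous basal libraries (median 0.648), 24.1, 16.1 and 26.7 CPM at L3 and 35.0 and 127 CPM at L10 (4.30 ± 0.41, limma adjusted p = 2.80e-10). In luminal libraries it did not exceed 3.70 CPM in lactation (0.41 ± 0.39), and the change differed between cell types by 3.89 ± 0.57 (limma adjusted p = 4.80e-06) but not by edgeR (adjusted p = 0.367). Its nulliparous luminal values were 0 to 0.234 CPM, near or under the level of 3 reads.

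Other basal increases were *Nrp1* (3.33), *Robo4* (3.16), *Plxnd1* (3.10), *Slit3* (2.30), *Sema3f* (1.72), *Sema6b* (1.58), *Unc5b* (2.83-fold in CPM + 1) and *Nrp2* (1.44), and *Sema6b* was not called with the sort as a replicate block (adjusted p = 0.0117). *Slit3* rose from 91.9 to 190 CPM in nulliparous basal libraries to 350 to 986 CPM in lactation, a call that was lost without L10 replicate 6. The remaining luminal increases were *Nrp2* (2.80), *Robo4* (2.71), *Nrp1* (2.20), *Plxnd1* (1.96), *Slit3* (1.86), *Plxna2* (1.83), *Sema4g* (1.73), *Efnb2* (1.52), *Efna4* (1.39), *Plxna1* (1.33), *Plxnb3* (1.29) and *Sema4b* (1.21). All 12 endothelial and all 8 pericyte markers were called higher in basal cells in lactation, and 9 of 12 and 4 of 8 in luminal cells. All 4 adipocyte markers (median 4.27), 4 of 10 fibroblast and 2 of 9 immune markers were also called higher in basal cells, and 2 of 4, 1 of 10 and 4 of 9 in luminal cells. Of 10 basal markers 3 were called higher and 1 lower in basal libraries (median 1.06). Endothelial markers summed to 58.1 to 296.5 CPM in nulliparous basal libraries and to 1126, 1191 and 1927 CPM at L3 and 1755 and 947.2 CPM at L10, with *Cdh5* the most abundant and none at 0 in lactation. Pericyte markers summed to 97.8 to 212.8 CPM and then to 1652, 3972, 7665, 9298 and 16384 CPM, led by *Rgs5* in every lactation basal library. In luminal libraries the endothelial sum was 163.9 to 761.4 CPM in lactation and 39.7 to 167.9 CPM in nulliparous glands. In luminal libraries 6 of 10 basal markers were called higher as well and 1 lower (median 1.57). Of the 14 luminal increases 10 were called higher in the basal sort in the mean of all time points, as were 35 of all 62 members (56.5%). These 10 were *Slit3*, *Nrp1*, *Nrp2*, *Plxnd1*, *Plxna2*, *Plxna1*, *Efnb2*, *Robo4*, *Sema3g* and *Sema4g*. The lineage-negative gate was meant to remove CD31+ endothelial, CD140a+ stromal and immune cells. The part of any of these cells in the changes was not tested.

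**Figure D4:**
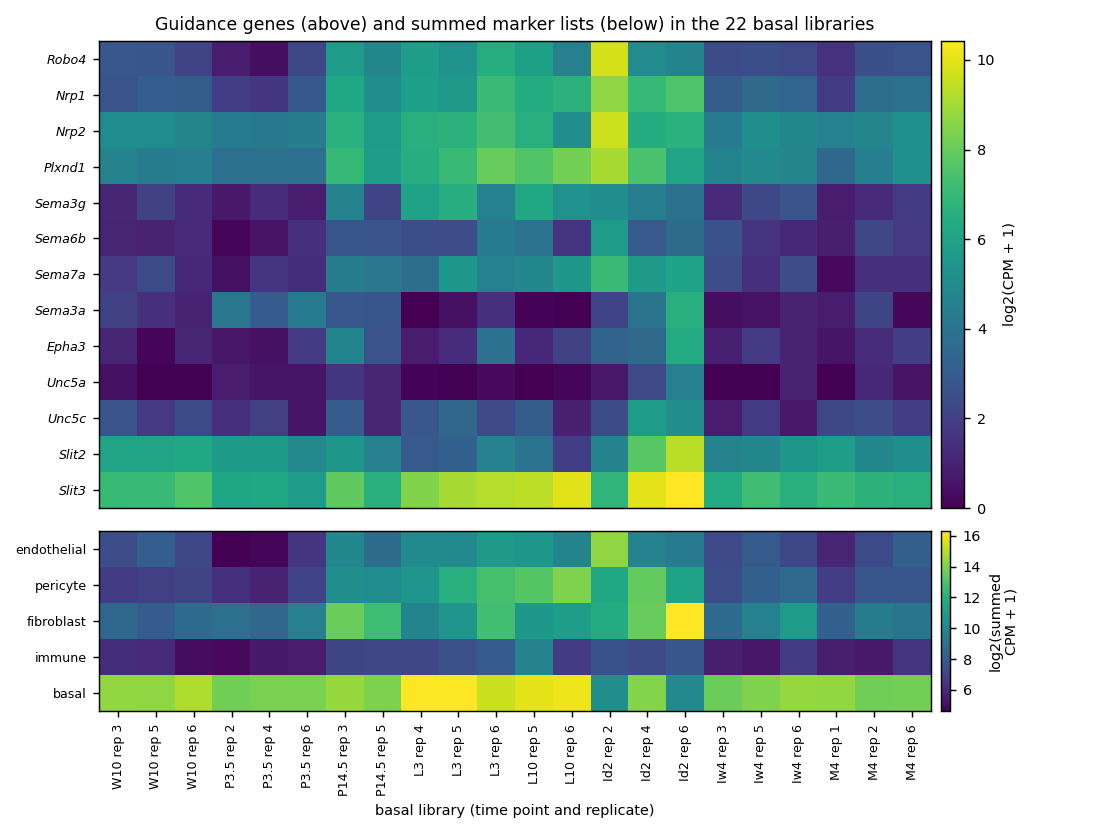
Levels of 13 guidance genes (upper panel, log2(CPM + 1)) and summed marker lists (lower panel, log2 of summed CPM + 1) in each of the 22 basal libraries, in the order of the cycle. Id2 replicate 2 is brightest for *Robo4* (866 CPM) and endothelial markers (20511 CPM), and Id2 replicate 6 for *Slit2* (654 CPM) and fibroblast markers (77308 CPM).

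Against these increases, the Slit and Robo pair *Slit2* and *Robo2* fell in basal cells in lactation. *Robo2*, a Slit receptor, was 20.1 to 43.5 CPM in the 6 nulliparous basal libraries (median 28.0) and 2.41, 0.254 and 11.3 CPM at L3 and 1.31 and 0.285 CPM at L10. All 5 lactation values lay under all nulliparous values (-3.57 ± 0.56, limma adjusted p = 3.63e-06). *Slit2* was 28.0 to 75.8 CPM (median 60.7) and then 6.50, 8.37 and 23.4 CPM at L3 and 14.8 and 2.85 CPM at L10, also without overlap (-2.45 ± 0.54, limma adjusted p = 4.63e-04), though not called without L10 replicate 6. Both stood highest in L3 replicate 6, the lactation library with the most fibroblast markers (6912 CPM). At Iw4, after involution, *Robo2* was 21.6, 17.1 and 33.2 CPM and *Slit2* 24.4, 26.4 and 44.5 CPM in basal libraries, inside or near the nulliparous range.

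The other basal decreases were *Plxna3* (-2.35), *Efna5* (-1.77), *Ephb1* (-1.27), *Sema4d* (-1.26), *Sema6c* (-1.24), *Epha4* (-1.19) and *Sema4a* (-1.19). In the same comparison 7 of 10 luminal markers were called lower in basal libraries (median -1.52), and their part was not tested. *Sema4d* was not called without L10 replicate 6, in which it was 1.80 CPM. In luminal cells *Ephb3*, a class B Eph receptor, was 19.8 to 73.2 CPM in nulliparous (median 45.3) and 5.96 to 16.1 CPM in lactation libraries (median 11.0), without overlap (-1.76 ± 0.30, limma adjusted p = 2.21e-05). *Epha7*, a class A Eph receptor, was 4.84 to 13.2 CPM (median 10.6) and then 0.721 to 3.97 CPM (median 2.76), also without overlap (-1.72 ± 0.31, limma adjusted p = 4.03e-05). *Sema4a* was lower by 1.43 in luminal cells.

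For 8 members the lactation change differed between cell types in the test of the difference itself (basal minus luminal), 2 of them toward higher in basal, where 5.4% of all genes were, and 6 toward lower, where 4.91% were. Beside *Sema5b*, the other positive one was *Epha1* (1.24), at 34.2 to 83.4 CPM in lactation basal libraries. *Robo2* differed by -4.22 ± 0.76 (limma adjusted p = 9.57e-05), its luminal level being 0.117 to 1.37 CPM in nulliparous and 0.133 to 16.7 CPM in lactation libraries. The value of 16.7 CPM was that of L10 luminal replicate 5, the luminal library with the most basal markers. In lactation basal libraries *Robo2* was 0.254 to 11.3 CPM (median 1.31). The part of basal cells in the luminal value was not tested.

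*Plxna4* differed by -2.41 ± 0.67 (limma adjusted p = 0.00920), at 0.414 to 5.14 CPM in nulliparous and 3.16 to 25.2 CPM in lactation luminal libraries, and at 39.3 to 119 CPM and then 25.7 to 48.5 CPM in basal libraries. It was called in only 7 of 24 fits with 1 sort left out. *Efna3*, a lipid-anchored ephrin, differed by -1.95 ± 0.49 (limma adjusted p = 0.00345). Its luminal values were 0 to 0.585 CPM and then 0.266 to 3.54 CPM, and its basal values 0.915 to 5.64 CPM and then 0.665 to 4.09 CPM, so that it was low in both cell types. *Efna5*, a lipid-anchored ephrin, differed by -1.95 ± 0.47 (limma adjusted p = 0.00277), at 6.73 to 28.3 CPM and then 6.12 to 21.7 CPM in luminal and 24.5 to 40.0 CPM and then 2.97 to 20.6 CPM in basal libraries. *Sema4d* differed by -1.68 ± 0.41 (limma adjusted p = 0.00283, edgeR adjusted p = 0.0128), at 57.3 to 114 CPM and then 82.1 to 131 CPM in luminal and 10.3 to 26.0 CPM and then 1.80 to 15.0 CPM in basal libraries. *Plxna3* differed by -1.43. Without L10 replicate 6 the count of 8 fell to 4.

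**Figure D5:**
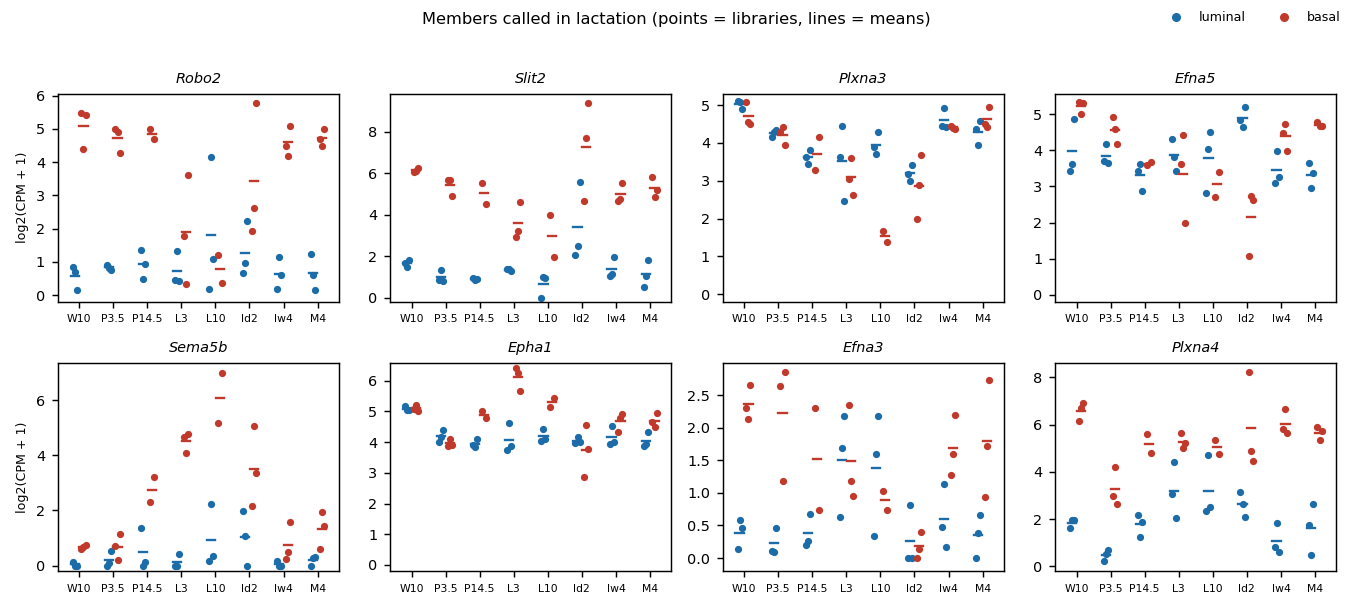
Levels of 8 members called in lactation, within a cell type or for the difference between them. Points are libraries and lines are means on the log2(CPM + 1) axis, luminal in blue and basal in red, at the 8 time points. Basal *Robo2* and *Slit2* dip at L3 and L10, where basal *Sema5b* peaks (35.0 and 127 CPM at L10).

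From L10 to Id2, the start of involution, none of the members was higher by limma and 3 were lower in luminal cells, against 2.15% and 2.41% of all genes. In the first direction 6 were higher at an unadjusted p under 0.05 and edgeR called 1 higher. *Slit2* had the largest change (2.73) and was called higher with the sort as a replicate block, though not without it. It was 0, 1.01 and 0.950 CPM at L10 and 3.16, 4.68 and 47.2 CPM at Id2. The highest value was that of Id2 luminal replicate 6, with 5549 CPM of fibroblast markers. *Efnb2*, a transmembrane ephrin, was 15.3, 150 and 99.6 CPM at L10 and 12.8, 13.7 and 8.54 CPM at Id2 (-2.33 ± 0.46, limma adjusted p = 7.75e-04). *Epha4*, an Eph receptor that binds ephrins of both classes, was 6.25, 43.4 and 26.5 CPM and then 2.57, 2.62 and 6.10 CPM (-2.20 ± 0.49, limma adjusted p = 0.00254). For both, L10 replicate 4 lay close to the Id2 values and L10 replicate 5, the luminal library with the most basal markers, was highest. In lactation basal libraries *Efnb2* was 97.1 to 167 CPM and *Epha4* 23.1 to 51.7 CPM. From L10 to Id2 3 of 10 basal markers were called lower in luminal libraries (median -1.43), and their part was not tested. *Plxnb1* was lower by 1.93 and was not called with the sort as a replicate block (adjusted p = 0.0101). Without L10 replicate 6 none of the 3 was called, and without Id2 replicate 4 only 1 was.

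In basal cells 5 members were higher and 11 lower at Id2 than at L10, against 5.63% and 7.68% of all genes, but all 10 basal markers were called lower and all 3 Id2 libraries were low in *Krt5*, *Krt14* and *Trp63*. *Slit2* was 24.4, 208 and 654 CPM in Id2 replicates 2, 4 and 6 and 14.8 and 2.85 CPM at L10 (4.28 ± 0.80, limma adjusted p = 1.42e-04). *Sema3a*, a secreted semaphorin, was 3.28, 15.1 and 92.8 CPM in the same libraries and 0.0873 and 0 CPM at L10 (4.16 ± 0.71, limma adjusted p = 4.42e-05). Both had the same order over the 3 libraries as the fibroblast marker sums of 3502, 12044 and 77308 CPM, although the CD140a gate was meant to remove such cells, as did *Epha3* (9.06, 11.2 and 83.5 CPM), *Unc5a* (0.625, 3.97 and 22.3 CPM), both called higher, and *Robo1* (8.43, 40.6 and 152 CPM), which was not called against L10 (-0.47). *Robo4* (866, 31.8 and 24.7 CPM), *Nrp2* (789, 86.9 and 99.4 CPM) and *Plxna2* (501, 63.7 and 58.8 CPM) were instead highest in replicate 2, the library with the most endothelial markers, and none of the 3 was called against L10. *Unc5c* was higher by 2.40, with 4.37, 52.3 and 33.9 CPM. Against W10, which shared an amplification batch but not a lane with Id2, basal *Slit2* differed by 1.10 and was not called. Counts of members called at Id2 against W10 are given under the processing below, without the share of all genes. The part of other cell types in these changes was not tested.

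The largest basal decreases at Id2 were those of *Plxnb1*, the plexin-B1 receptor of *Sema4d*, from 197 and 300 CPM at L10 to 15.6, 105 and 15.5 CPM (-2.99 ± 0.56, limma adjusted p = 1.48e-04), and *Ephb6*, an Eph receptor without kinase activity, from 22.5 and 42.0 CPM to 1.09, 7.36 and 3.88 CPM (-2.85 ± 0.68, limma adjusted p = 0.00192). In each case replicate 4, with the most *Krt5* of the 3, was highest among the Id2 libraries. *Sema4g* (-2.57), *Sema5b* (-2.57), *Epha7* (-2.51), *Sema3c* (-2.37), *Efnb3* (-2.29), *Ephb1* (-1.86), *Unc5d* (-1.76), *Epha1* (-1.56) and *Sema4b* (-1.34) were lower too. In the same comparison 3 of 8 pericyte (median -1.43) and 2 of 4 adipocyte markers (-2.32) were called lower and 4 of 10 fibroblast markers higher, and their part was not tested. Without L10 replicate 6, which leaves 1 L10 basal library, only 1 of the 16 members was called.

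At Iw4 no member was called against the nulliparous gland at M4 by limma or edgeR in either cell type, where 0% and 0% of all genes were called in luminal and 0% and 0.00586% in basal cells. At an unadjusted p under 0.05 there was 1 luminal member, higher at Iw4, and 0 basal members. The largest absolute difference was 1.37 in luminal and 1.11 in basal cells, with no adjusted p under 1. *Slit3* was 84.5, 150 and 93.2 CPM at Iw4 and 138, 105 and 91.9 CPM at M4 in basal libraries, and *Sema4d* was 58.9, 63.8 and 43.2 CPM and 61.8, 57.3 and 63.5 CPM in luminal libraries, with overlapping groups in both. Amplification batches 1, 2 and 3 each held 1 Iw4 and 1 M4 sort, and the fit did not pair them. In that batch order basal *Efnb2* was 44.6, 51.4 and 76.3 CPM at Iw4 and 81.2, 75.6 and 124 CPM at M4. Luminal *Sema7a* was 3.48, 1.71 and 2.17 CPM at Iw4 and 0.104, 0.824 and 0.117 CPM at M4. A change within batches was not tested.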

How the data were processed

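RNA from each sort was amplified (Ovation RNA-Seq V2) and sequenced on an Illumina HiSeq. The authors aligned reads with GSNAP to the mouse genome NCBI Build 37.1, counted them per gene with HTSeq and scaled them with edgeR; whether strand was used is not given in the sources used here. The deposited signal is CPM after the authors removed genes of low expression and a few of very high, little-varying counts. Whole reads were recovered for 100% of values (tolerance 0.01 reads). Of 47 samples described, 1 was not analysed here. One P14.5 sort is numbered 5 in its titles and 6 in the table, and is called replicate 5. The shares of all genes, the marker calls, the sizes of the cell type differences and the levels per kb without Id2 were added after seeing the data.

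The test was limma 3.58.1 (trend, R 4.3.3) on CPM values after adding 1 and taking log2, which makes changes of low genes look smaller, with 16 condition means over 46 libraries. Calls were made at an absolute log2 change of 1 or more with FDR under 0.01 by Benjamini-Hochberg adjustment over 17078 genes. The same design was fitted to recovered reads with edgeR 4.0.16 (quasi-likelihood). P-values measure the spread between sorts of pooled mice. Luminal and basal libraries of 1 sort share their mice: their deviations from the group means correlated with a median of 0.25 over 22 sorts (21 positive; consensus 0.1791 as a block). Symbols were found for 16897 identifiers and not for 181, exon lengths come from GENCODE M21, and promoter windows were found for 53 members. Members and lists were chosen with earlier results of these data known. Values per library are given for the 4 members with the largest called cell type difference in each direction, the 2 with the largest called change in each direction per time comparison, and up to 6 members whose change differed between cell types. Any other member shown by library was chosen after its values were seen.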

Additional observations from a re-analysis of the deposited data

Results flagged for a closer look

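For 8 members the change from the nulliparous gland to lactation differed between basal and luminal cells, by limma's test of the difference itself (basal change minus luminal change, log2 scale). Toward higher in basal cells were *Sema5b* (3.89) and *Epha1* (1.24). Toward lower in basal cells were *Robo2* (-4.22), *Plxna4* (-2.41), *Efna3* (-1.95), *Efna5* (-1.95), *Sema4d* (-1.68) and *Plxna3* (-1.43). For *Plxna4* and *Efna3* neither cell type passed the test alone, the luminal changes being 1.45 and 1.06 and the basal changes -0.96 and -0.89, nor did either for *Epha1* (-0.44 luminal, 0.80 basal). *Robo2*, *Efna5*, *Sema4d* and *Plxna3* were called lower in basal cells, with luminal changes of 0.65, 0.18, 0.43 and -0.93 that were not called. For the same difference 7 of 8 pericyte, 3 of 4 adipocyte and 2 of 10 fibroblast markers were called higher and 3 of 10 basal, 2 of 10 luminal and 1 of 10 fibroblast markers lower, while 0 of 12 endothelial and 0 of 9 immune markers were called. In the luminal arm alone 6 of 10 basal markers were called higher. The part of these cells in the differences was not tested.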

How the results depend on the processing

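Of 728 alternative counts 689 lay within 1.5 times the reported count, and of 284 alternative values for the 36 single-gene results 234 kept their side of the threshold, 50 lost the call and 0 reversed. The basal and luminal counts in the mean of 8 time points (35 and 4) were 37 and 4 by edgeR, 35 and 5 after rescaling by median ratios, 38 and 4 with a pseudocount of 0.1, and 30 and 3 among genes with a mean of at least 5 CPM. The 6 mid pregnancy calls in basal cells became 2 with a pseudocount of 0.1, 3 by edgeR and 11 at an FDR under 0.05, and the 3 in luminal cells became 1 by edgeR. At an FDR under 0.05 early pregnancy gave 8 basal calls, early involution 8 luminal calls and the lactation difference between cell types 13. Id2 against W10 in place of L10 gave 11 luminal and 29 basal calls, where 3 and 16 were made against L10. The share of all genes called against W10 is not given here, so these counts are not read as a result about the members. The cause of these shifts was not tested.

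With 1 sort left out, the counts ranged from 34 to 37 (higher in basal, mean), 3 to 5 (higher in luminal, mean), 18 to 29 (W10), 16 to 30 (P3.5), 6 to 31 (P14.5), 20 to 34 (L3), 10 to 22 (L10), 25 to 32 (Id2), 13 to 25 (Iw4) and 17 to 29 (M4). Variation over time ranged from 21 to 27 members in luminal and 38 to 42 in basal cells. Luminal and basal counts ranged from 0 to 0 and 1 to 5 in early pregnancy, 1 to 4 and 0 to 7 in mid pregnancy, 15 to 20 and 15 to 21 in lactation, and 0 to 4 and 1 to 17 in early involution. The lactation difference between cell types ranged from 4 to 12. Where an arm kept 1 library, that library is assumed to vary like the other groups.

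With the sort as a replicate block the mean counts were 35 and 4 and no count moved by over 1.5 times. The calls lost under the block were basal *Sema6b* in lactation and luminal *Plxnb1* in early involution, beside changes in which members were called to vary over time in luminal cells (23 with the block, 25 without). The calls gained were at most 5 in any comparison.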
